A study of Mus musculus with 14 samples.

Results

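The nuclear genes of oxidative phosphorylation were followed in macrophages and epithelial cells sorted from mouse colon. They were the rows of the count table annotated as protein coding whose name begins with Ndufa, Ndufb, Ndufc, Ndufs, Ndufv, Sdh, Uqcr, Cox4, Cox5, Cox6, Cox7, Cox8 or Atp5. This gave 100 of 55487 rows: 39 for complex I, 4 for complex II, 8 for complex III, 19 for complex IV, 18 for complex V and 12 for the assembly factors named Ndufaf or Sdhaf, which build complexes I and II and are not part of them. The choice used the name and the biotype only. Complexes were assigned by name too, so Ndufa4, known to sit in complex IV, and its pair Ndufa4l2 are counted under complex I. The rows lay on 19 chromosomes, with Ndufa1, Ndufb11 and Cox7b on X. Cox7b2, Cox8c and 1 of the 2 rows named Atp5o had no count in any library. Cox5b-ps and Ndufb1-ps carry a pseudogene suffix but are annotated as protein coding, and were kept.

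Each group is named by genotype and cell type. The genotype called cre was Tsc2fl/fl Lyz2cre/+, and wt was Tsc2fl/fl Lyz2+/+, so both carried floxed Tsc2 alleles and no group carried the recombinase alone. Tsc2 works with Tsc1 as a brake on mTORC1, a kinase that promotes growth. Lyz2-Cre is active in myeloid cells, so the epithelial comparison sets cells from mice with a recombinase in another lineage beside cells from mice without it. Macrophages came from the colon lamina propria and were sorted as Cd45+ Cd11b+ Cd64+ MHCII+ cells that lacked Ly6C, Ly6G, Cd24, SiglecF and Cd103, and epithelial cells as Cd45- EpCAM+ Cd44+ cells. Macrophage libraries came from wt mice 2, 4 and 6 and cre mice 8, 9 and 10, and epithelial libraries from wt mice 2, 4, 6 and 7 and cre mice 5, 8, 9 and 10. Mice 2, 4 and 5 were female and the others male, so all cre macrophage libraries were male. The labels give no ages. The series text counts 3 control mice where the titles carry 4 wt numbers, and if libraries share an animal the p-values are too small.

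Oxidative phosphorylation joins the oxidation of nutrients to the making of ATP in the inner mitochondrial membrane. Complex I takes electrons from NADH and complex II, which is also a tricarboxylic acid cycle enzyme, takes them from succinate. Complex III passes them to cytochrome c, complex IV passes them to oxygen, and complex V, the ATP synthase, uses the proton gradient so formed. All subunits of complex II and most of the others are encoded in the nucleus, and the remaining ones in mitochondrial DNA. Differentiated colonocytes are known for burning butyrate in their mitochondria, and macrophages for shifting between glycolysis and respiration with their state of activation.

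Library totals ran from 7269103 to 9364551 counts. The summed level of 14 macrophage markers was 17677 to 26426 CPM (counts scaled to a common library size with TMM over all 14 libraries) in macrophage libraries and 43.6 to 161 in epithelial ones. That of 10 epithelial markers was 55.0 to 305 and 9306 to 13491 in the same order, and none of these 24 genes was at 0 in a group. Tsc2 itself, counted over the whole gene, was 35.5 ± 8.90 CPM in wt and 31.8 ± 4.47 in cre macrophages (SD, n = 3 each), with overlapping groups, and 47.3 ± 2.70 and 52.7 ± 3.5 in wt and cre epithelial cells (SD, n = 4 each). Such a count holds reads from exons outside the floxed part and does not check the deletion.

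A larger share of the reads came from these genes in epithelial cells than in macrophages. Once a row of ribosomal RNA and the mitochondrial genes were set aside, the 100 rows took 3.75 to 4.04% of the counts in wt and 4.30 to 4.58% in cre epithelial libraries, and 1.06 to 1.24% and 1.07 to 1.17% in wt and cre macrophage libraries. The groups of the 2 cell types did not overlap, nor did the 2 epithelial groups, while the macrophage groups overlapped. In bulk samples such as these, fewer cells of a type and less RNA per cell cannot be told apart. Of 95 tested members, 87 were lower and 4 higher in macrophages by edgeR's quasi-likelihood test at an adjusted p under 0.05, with a median log2 difference of -1.40. Cox4i2 and Ndufa4l2 among the higher and Cox7a1 among the lower passed the count filter only through the cell type where they were high. Their calls were thus favoured in advance. Among all 16375 genes tested, 34.3% were lower and 39.4% higher, with a median of 0.07.

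Every complex was lower in macrophages on the scale of log2 differences. The median was -1.36 for complex I (37 of 39 tested genes lower, 1 higher), -1.12 for complex II (4 of 4 lower), -1.60 for complex III (8 of 8), -1.57 for complex IV (12 of 15 lower, 2 higher) and -1.37 for complex V (17 of 17). The gene counted under complex I that was higher was Ndufa4l2. The assembly factors differed least, with a median of -0.91 (9 of 12 lower, 1 higher). The summed FPKM, a level scaled to gene length by the authors, ran from 1720 to 1996 for complex V in wt macrophages, from 1703 to 1893 in cre macrophages, from 4166 to 4521 in wt epithelial cells and from 4898 to 5451 in cre epithelial cells. For complex II it ran only from 135 to 172, 126 to 131, 233 to 263 and 263 to 297 in the same groups.

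**Figure D1:**
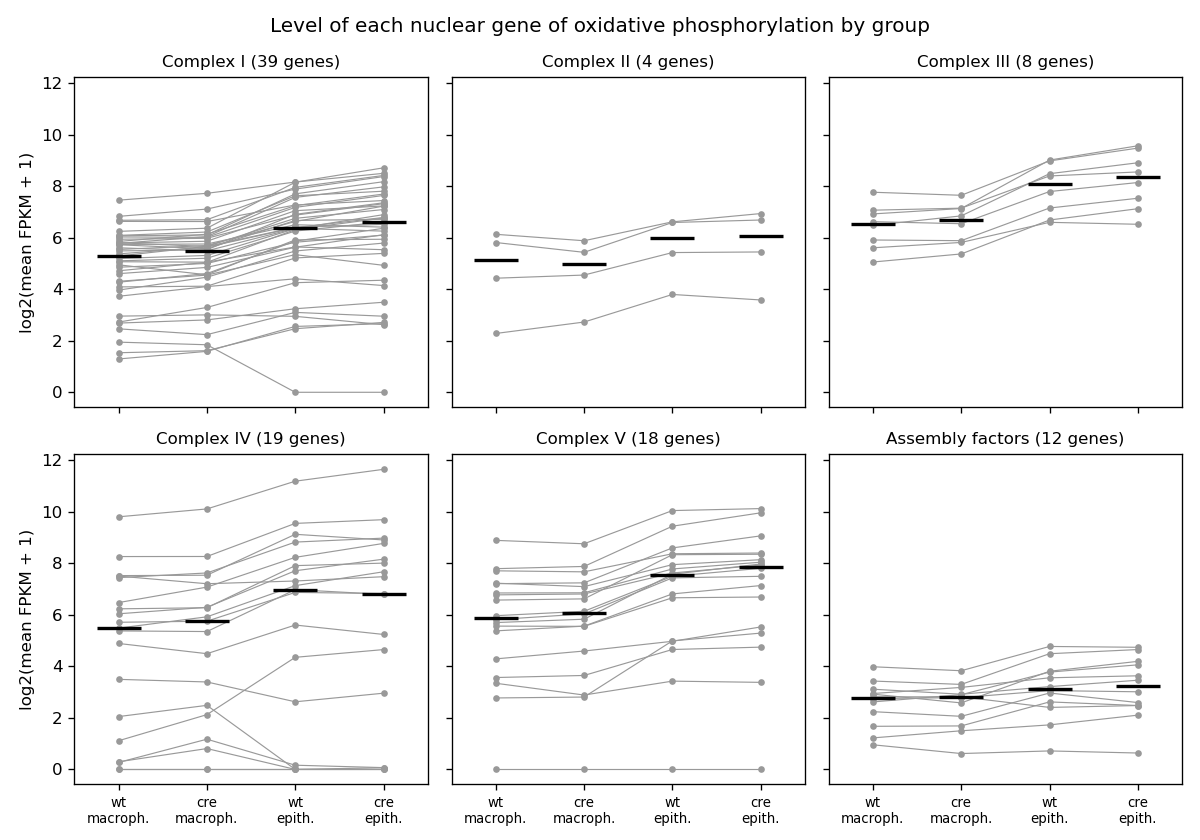
Mean FPKM of each gene by group, as log2(FPKM + 1), in 1 panel per complex with 1 grey line per gene and a black bar at the median. Most lines climb from the macrophage groups on the left to the epithelial groups on the right, and Cox4i2 and Ndufa4l2 drop to 0 there.

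Per length, Cox4i1 had the highest mean FPKM of all members in each of the 4 groups. It encodes the usual form of subunit 4 of complex IV, and reached 896 ± 73.0 FPKM in wt macrophages, 1108 ± 207 in cre macrophages (SD, n = 3 each), 2339 ± 49.5 in wt epithelial cells and 3220 ± 626 in cre epithelial cells (SD, n = 4 each). Atp5b, the catalytic beta subunit of the ATP synthase, came next in each group, with 475 ± 59.1, 433 ± 13.5, 1060 ± 148 and 1118 ± 117 FPKM in the same groups. Ranked by the mean FPKM over all 14 libraries, the highest members of the other complexes were Uqcrc1, a core protein of complex III (217 ± 46.2, 200 ± 25.3, 506 ± 42.5 and 714 ± 66.2 FPKM), Ndufa2 of complex I (175 ± 14.6, 211 ± 42.7, 286 ± 26.8 and 362 ± 47.8) and Sdha, the flavoprotein of succinate dehydrogenase (69.3 ± 11.5, 58.1 ± 2.16, 97.3 ± 5.55 and 122 ± 9.61). The order differed between cell types. Uqcr10 had a higher mean than Uqcrc1 in wt and cre epithelial cells (517 ± 22.7 and 760.3 ± 114 FPKM), and Ndufb9 a higher one than Ndufa2 in cre epithelial cells (420 ± 39.4). Ndufaf8 led the assembly factors at 14.9 ± 0.563, 13.2 ± 3.01, 26.4 ± 3.70 and 25.8 ± 2.81 FPKM. By the same mean, the lowest tested members were Ndufa4l2 among the genes counted by name under complex I, Sdhd for complex II (3.87 ± 1.2, 5.62 ± 2.08, 12.9 ± 3.23 and 11 ± 0.974 FPKM), Uqcrb for complex III (47.9 ± 8.15, 55.5 ± 6.03, 96.0 ± 10.1 and 91.1 ± 7.02), Cox4i2 for complex IV, Atp5g2 for complex V and Sdhaf3 among assembly factors (0.940 ± 0.173, 0.533 ± 0.161, 0.644 ± 0.0928 and 0.554 ± 0.0752). In macrophages other members lay lower: Ndufab1 of complex I at 1.45 ± 0.0933 FPKM in wt and 2.01 ± 0.239 in cre, Uqcrq of complex III at 32.3 ± 2.25 and 40.4 ± 4.58, Cox7a1 of complex IV at 1.16 ± 0.616 and 3.37 ± 1.70, and Atp5g1 of complex V at 5.84 ± 0.863 and 6.01 ± 0.538. Neighbours in this order were not tested against each other, and many lie within each other's spread between libraries. The order also depends on the length by which FPKM divides each gene. In wt macrophages Uqcrq was at 71.1, 76.7 and 68.6 CPM, above Uqcrb at 25.8, 34.5 and 33.4. Atp5g1 was at 41.1, 29.4 and 34.9 CPM there, above Atp5g2 at 5.59, 9.44 and 9.43. Ndufab1, at 8.56, 7.38 and 7.44 CPM, lay above Ndufa4l2 at 2.26, 1.92 and 5.58.

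Promoter sequences are given for a few members, since the rows were spread over the genome. RefSeq windows (GRCm38.p6), from 250 bases before to 50 bases after a transcript start, could be matched to 81 of the 100 rows, with 86 windows in all. Each was searched on both strands for the palindromic site of NRF1, the factor named for nuclear genes of respiration (its letters are the capitals in the Ndufa11 sequence below), CCGGAAG, a site of ETS factors such as GABP, AAGATGGCG, a site of YY1, and TCAAGGTCA, a site of the estrogen-related receptors, which work with the coactivator PGC-1alpha. The 4 searches were independent, so matches may overlap. A match to at least 1 was present in 39.5% of the members' windows and in 14.4% of all 21263 windows of this length. Those 21263 windows belong to protein-coding genes and were not chosen by expression. For NRF1 the shares were 8.14% and 1.33%, for ETS 25.6% and 11.6%, for YY1 9.30% and 1.83%, and for the estrogen-related receptors 2.33% and 0.334%. A match is a run of letters and does not show that a factor is bound.

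The windows below end at the base before the start and are written 5′ to 3′ on the gene's strand, with matched letters in capitals. Ndufa11 and Ndufb7, both of complex I, stand for genes that were higher in cre epithelial cells. The Ndufa11 stretch, chr17:56717662-56717761 on the plus strand, holds an NRF1 match 60 to 51 bases before the start, and the Ndufb7 stretch, chr8:83566658-83566757 on the plus strand, an ETS match 20 to 14 bases before it.
Ndufa11: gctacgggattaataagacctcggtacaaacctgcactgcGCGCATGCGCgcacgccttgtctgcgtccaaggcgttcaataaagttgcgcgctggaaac
Ndufb7: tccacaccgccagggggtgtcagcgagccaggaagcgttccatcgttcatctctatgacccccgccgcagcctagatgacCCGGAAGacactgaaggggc
Cox6a1, at a log2 change of -0.26 in cre epithelial cells that did not pass the test, holds both kinds of match in chr5:115348959-115349138 on the minus strand, NRF1 at 162 to 153 and ETS, read on the opposite strand, at 16 to 10 bases before the start.
Cox6a1: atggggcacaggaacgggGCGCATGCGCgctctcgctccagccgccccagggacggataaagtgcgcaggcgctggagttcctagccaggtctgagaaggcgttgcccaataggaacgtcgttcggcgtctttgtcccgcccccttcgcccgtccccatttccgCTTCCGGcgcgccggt
The 3 genes Atp5g1, Atp5g2 and Atp5g3 encode the same membrane-ring subunit c of the ATP synthase, and their upstream bases differ. The minus-strand stretch of Atp5g1, chr11:96075632-96075731, holds none of the 4 motifs, that of Atp5g2, chr15:102671048-102671147, an NRF1 match at 42 to 33, and that of Atp5g3, chr2:73911327-73911426, a match for the estrogen-related receptors at 52 to 44 bases before the start.
Atp5g1: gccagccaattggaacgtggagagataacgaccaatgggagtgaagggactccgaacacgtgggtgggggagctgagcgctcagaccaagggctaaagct
Atp5g2: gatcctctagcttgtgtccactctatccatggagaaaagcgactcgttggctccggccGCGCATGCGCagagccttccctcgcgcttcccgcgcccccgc
Atp5g3: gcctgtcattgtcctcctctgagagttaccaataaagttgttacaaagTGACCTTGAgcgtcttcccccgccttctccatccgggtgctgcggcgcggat
Of the 18 genes with a window that were higher in cre epithelial cells, 2 held an NRF1 match, 3 an ETS match, 2 a YY1 match and 0 a match for the estrogen-related receptors. Of the 60 tested genes with a window that were not called there, 5, 19, 6 and 2 did.

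Cell types were next compared gene by gene. Cox7a1, at chr7:30184144-30186078 (plus strand, GRCm38) and known as the heart and muscle form of a small complex IV subunit, differed most among the members that were lower in macrophages. It stood at 1.07, 0.295 and 0.930 CPM in wt macrophages and 3.42, 1.12 and 2.07 in cre macrophages, against 11 to 18.2 in wt and 13.3 to 21.2 in cre epithelial libraries. No macrophage library reached the lowest epithelial one (log2 difference -3.54, SE 0.28). With 2 to 20 counts in the macrophage libraries, it passed the count filter through the epithelial ones. Its call is therefore no independent support for the difference.

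In complex V, Atp5g1 ran from 29.4 to 41.1 CPM over the 6 macrophage libraries and from 193 to 266 over the 8 epithelial ones, a log2 difference of -2.64 (SE 0.10, edgeR adjusted p = 4.69e-13). Atp5g3 and Atp5o, the oligomycin-sensitivity subunit in the stalk, differed by -1.87 (SE 0.08) and -2.14 (SE 0.11). In complex III, Uqcr10 ran from 58.4 to 82.3 CPM against 281 to 504 (log2 difference -2.38, SE 0.11), and Uqcr11 and Uqcrq differed by -2.16 (SE 0.11) and -1.83 (SE 0.09). In complex I, Ndufb9, Ndufv1, which carries the NADH-binding site, and Ndufb10 differed by -2.25 (SE 0.11), -1.97 (SE 0.09) and -1.60 (SE 0.09). In complex IV, Cox7a2, Cox6b1 and Cox7b differed by -1.83 (SE 0.08), -1.48 (SE 0.08) and -1.66 (SE 0.09). Each of these differences passed edgeR's test and was larger than the spread between libraries.

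Complex II showed a smaller gap, with Sdhc, a membrane anchor, at -1.09 (SE 0.08), Sdhb, the iron-sulfur subunit, at -1.14 (SE 0.09), Sdha at -0.89 (SE 0.09) and Sdhd at -1.47 (SE 0.20). Among the assembly factors, Ndufaf6, Ndufaf1 and Ndufaf8 differed by -1.50 (SE 0.15), -1.40 (SE 0.15) and -1.0 (SE 0.13). Sdhaf2, which helps to attach the flavin of Sdha, was the one higher in macrophages among assembly factors, from 39.5 to 59.4 CPM against 37.2 to 41.6 (log2 difference 0.34, SE 0.10, edgeR adjusted p = 0.00648). Its groups overlapped, and the difference turned to -0.27 once a trend with GC content and length was removed from the counts.

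Cox7a2l did not differ detectably between cell types. It is related to Cox7a2 and known for linking complexes III and IV into supercomplexes. Its levels were 256, 237 and 266 CPM in wt macrophages, 258, 179 and 178 in cre macrophages, 226 to 253 in wt and 258 to 278 in cre epithelial libraries (log2 difference -0.15, SE 0.09, edgeR adjusted p = 0.148). As a share of the summed FPKM of Cox7a1, Cox7a2 and Cox7a2l, it held 67.5 ± 4.20% in macrophages (SD, n = 6) and 38.4 ± 1.84% in epithelial cells (SD, n = 8). Cox7a2 held 31.6 ± 3.94% and 56.7 ± 2.10%, and Cox7a1 0.944 ± 0.661% and 4.94 ± 0.971%. None of these 3 shares overlapped between cell types. The larger share of Cox7a2 in epithelial cells rests on the scaling to gene length. In CPM Cox7a2 ran from 197 to 243 over those libraries, not above Cox7a2l.

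Other isoform sets were weighted differently as well. Of the 3 subunit c genes, Atp5g3 took most in both cell types, 87.5 ± 1.83% of summed FPKM in macrophages and 88.0 ± 1.28% in epithelial cells. Atp5g1 took 5.41 ± 0.663% and 9.37 ± 1.18%, and Atp5g2 7.11 ± 2.13% and 2.61 ± 0.365%. Such shares depend on the length by which FPKM divides each gene. In CPM, Atp5g1 stood much nearer to Atp5g3, at 193 to 266 against 288 to 352 over the epithelial libraries. Over the macrophage libraries it ran from 29.4 to 41.1 CPM, above Atp5g2 at 5.13 to 9.44, and Atp5g3 from 80.0 to 89.1. Cox6b2, a form known from testis, took 5.14 ± 1.48% of its pair with Cox6b1 in macrophages and 1.24 ± 0.343% in epithelial cells (SD, n = 6 and 8 throughout). Each of these shares except that of Atp5g3 gave p = 0.000666 in an exact two-sided permutation test, the smallest that 6 against 8 libraries allow, and 0.000749 adjusted over 9 such tests. Atp5g3 gave p = 0.515 in the same exact test. Most mouse numbers occur in both cell types, which the test does not use.

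**Figure D2:**
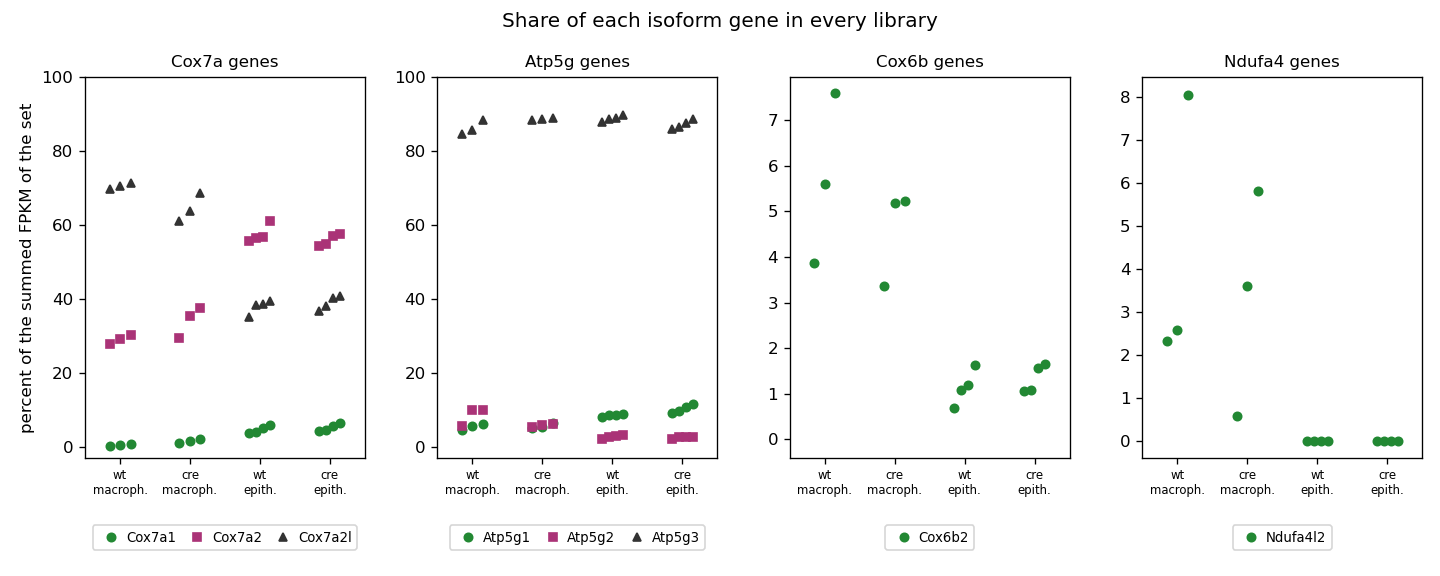
Share of summed FPKM of an isoform set, in percent, with 1 point per library in the 4 groups. Cox7a2l leads in macrophages and Cox7a2 in epithelial cells, Atp5g3 leads in both, and Cox6b2 and Ndufa4l2 (shown alone, on their own axes) are highest in macrophages.

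Cox4i2 and Ndufa4l2, forms known to respond to low oxygen, were found in macrophage libraries only. Cox4i2 had 6 to 51 counts in each macrophage library and 0 in all 8 epithelial libraries, at 2.61, 2.21 and 4.25 CPM in wt and 1.03, 6.34 and 5.73 in cre macrophages. The mean over the 6 macrophage libraries, 3.70 CPM, was 11.5-fold a floor of 3 counts per epithelial library (0.321 CPM on average). Ndufa4l2 had 3 to 43 counts, at 2.26, 1.92 and 5.58 CPM in wt and 0.513, 5.35 and 2.86 in cre macrophages. Its mean of 3.08 CPM was 9.61-fold the same floor, while the lowest library, cre 8, had only 3 counts. Cox4i2 made up 0.404 ± 0.235% of its pair with Cox4i1, and Ndufa4l2 3.82 ± 2.69% of its pair with Ndufa4 in macrophages (SD, n = 6). Both genes are also known from pericytes and smooth muscle. The summed level of 9 fibroblast and smooth muscle markers was 3195 to 5371 CPM in wt macrophages, 966 to 2777 in cre macrophages and 2.0 to 7.73 in epithelial cells, and none of the 9 was at 0 in a group. The part of these other cells in the Cox4i2 and Ndufa4l2 counts was not tested. The muscle forms Cox6a2 and Cox8b stayed at or under 9 counts in each library.

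Genotype was then compared within each cell type. In epithelial cells, members of complexes I, III, IV and V were higher in cre mice by a modest amount. Of 93 tested genes 25 were higher (26.9%) and 1 was lower, with a median log2 change of 0.23. Of all 13553 genes tested, 5.64% were higher and 3.53% lower, with a median of -0.05. At an unadjusted p under 0.05 stood 46 of the members and 3696 of all genes.

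The calls were then counted by complex. Complex III had 5 of 8 genes higher (median log2 change 0.36), complex I 12 of 38 (0.26), complex IV 4 of 14 with 1 lower (0.12) and complex V 4 of 17 (0.22). None of the 4 genes of complex II and none of the 12 assembly factors was called in edgeR, with medians of 0.02 and 0.05, while 1 and 3 of them had an unadjusted p under 0.05. Sdha came nearest in complex II, at 370.5, 370.0, 358 and 403 CPM in wt and 441, 425, 508 and 467 in cre libraries (log2 change 0.28, SE 0.09, edgeR adjusted p = 0.0579). Whether complexes differed from each other was not tested.

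In complex I, Ndufb9 (chr15:58933756-58939488, plus strand, GRCm38), a subunit of the membrane arm, was at 268, 281, 251 and 268 CPM in wt libraries 2, 4, 6 and 7 and at 429, 350.3, 400.3 and 360.5 in cre libraries 5, 8, 9 and 10. All 4 cre libraries lay above all 4 wt libraries (log2 change 0.52, SE 0.09, edgeR adjusted p = 0.00775). Ndufa10 averaged 217 ± 11.5 CPM over the 4 wt libraries and 312 ± 30.8 over the 4 cre libraries (SD), a log2 change of 0.51 (SE 0.10). Ndufv1 averaged 490.2 ± 36.3 and 667 ± 57.4 CPM, a change of 0.43 (SE 0.09). Neither gene's groups overlapped. The largest change in the complex was that of Ndufa11, 0.56. Also called were Ndufs7 and Ndufs8, which belong to the electron-carrying core, and Ndufv3, Ndufa9, Ndufb5, Ndufb7 and Ndufb10, with changes from 0.30 to 0.45. Ndufa4, counted here by its name and known to sit in complex IV, did not pass (0.14, SE 0.11, edgeR adjusted p = 0.464).

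In complex III, Uqcr10 (chr11:4701973-4704342, minus strand) was at 315, 296, 303 and 281 CPM in wt and 504, 384, 463 and 368 in cre libraries (log2 change 0.51, SE 0.11, edgeR adjusted p = 0.0120). Uqcrc1 went from 1112 ± 88.4 to 1538 ± 143 CPM (log2 change 0.46, SE 0.09) and Uqcrq from 248 ± 14 to 331 ± 41.0 (0.40, SE 0.10; SD, n = 4 each). No cre library of these 3 genes fell to the level of a wt library. Uqcrfs1, the Rieske iron-sulfur protein, rose by 0.31 and Uqcrc2, the other core protein, by 0.34 on the log2 scale. Uqcrb did not pass, at -0.12 (SE 0.11).

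In complex IV the changes went both ways. Cox5a (chr9:57521274-57532426, plus strand) rose from 270.0, 275, 245 and 241 CPM in wt to 399, 322, 389.8 and 361 in cre libraries (log2 change 0.50, SE 0.09, edgeR adjusted p = 0.00933). Cox5b went from 256 ± 13.3 to 343 ± 22.1 CPM (0.41, SE 0.09), and Cox5b-ps, which may share its reads, from 72.5 ± 5.18 to 103 ± 10.6 (0.50, SE 0.11; SD, n = 4 each). Cox4i1 was at 2341 to 2415 CPM in wt and at 4014, 2533, 3350.2 and 2949 in cre libraries (0.42, SE 0.12, edgeR adjusted p = 0.0410), so that library 8 lay close to the wt group and library 5 far above it. Cox7c (chr13:86044816-86046904, minus strand) was the one member called lower. It fell from 62.0, 75.1, 78.4 and 71.6 CPM in wt to 48.0, 55.7, 60.1 and 53.3 in cre libraries (log2 change -0.42, SE 0.12, edgeR adjusted p = 0.0413). Other isoform genes did not pass: Cox6a1 stood at -0.26 (SE 0.12), Cox7b at -0.23 (SE 0.09), Cox7a1 at 0.28 (SE 0.20), Cox7a2 at 0.06 (SE 0.09), Cox7a2l at 0.13 (SE 0.08), Cox6b1 at 0.11 (SE 0.09), Cox6b2 at 0.34 (SE 0.25) and Cox8a at 0.10 (SE 0.09).

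In complex V, Atp5a1, the alpha subunit of the catalytic head, was at 2718, 2789, 2362 and 2884 CPM in wt and 3940, 3591, 3982 and 3595 in cre libraries, with no overlap (log2 change 0.48, SE 0.09, edgeR adjusted p = 0.00865). Its partner Atp5b did not change detectably, at 0.04 (SE 0.11, edgeR adjusted p = 0.859). Atp5d, the delta subunit of the central stalk, moved from 729 ± 51.2 to 989 ± 112 CPM (0.43, SE 0.10), and Atp5l, the membrane subunit g, from 22.0 ± 1.24 to 32.1 ± 3.16 (0.53, SE 0.13; SD, n = 4 each). Rows annotated as pseudogenes of Atp5l, given below, may share its reads. Atp5o rose by 0.36. Of the subunit c genes, Atp5g1 was at 0.27 (SE 0.09, edgeR adjusted p = 0.0790), Atp5g2 at -0.09 (SE 0.18) and Atp5g3 at -0.02 (SE 0.09).

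**Figure D3:**
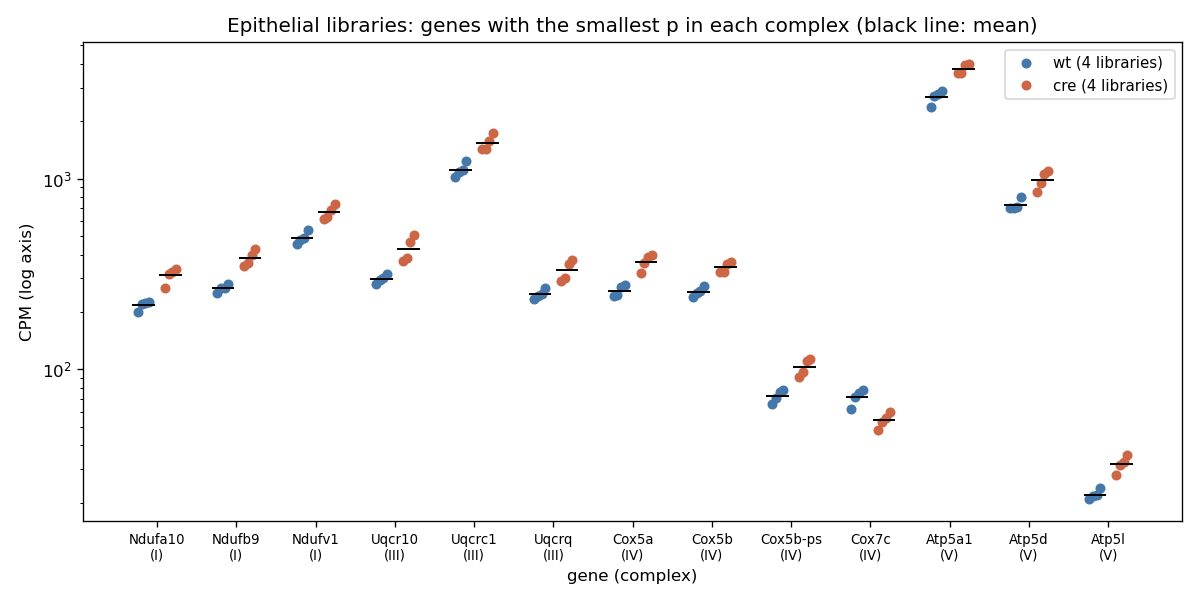
CPM on a log axis in the 8 epithelial libraries for the genes with the smallest p in each complex, with 1 point per library and a black line at the mean. The 4 cre points lie above the 4 wt points for every gene shown except Cox7c, where they lie below.

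The calls in epithelial cells depended on the fit and on single libraries. There were 0 calls among the members with males only (3 cre and 2 wt libraries), with all 14 libraries in one fit, with the ribosomal RNA share as a covariate and with the mitochondrial share as a covariate, while the median log2 change there was 0.24, 0.23, 0.14 and 0.29. Leaving out 1 library gave between 4 calls (without cre 9) and 36 (without cre 8), with 6 without cre 5 and 16 each without wt 2 and without wt 4. With the trend in GC content and length removed, 13 remained, all higher, of which 11 were among the 26.

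**Figure D4:**
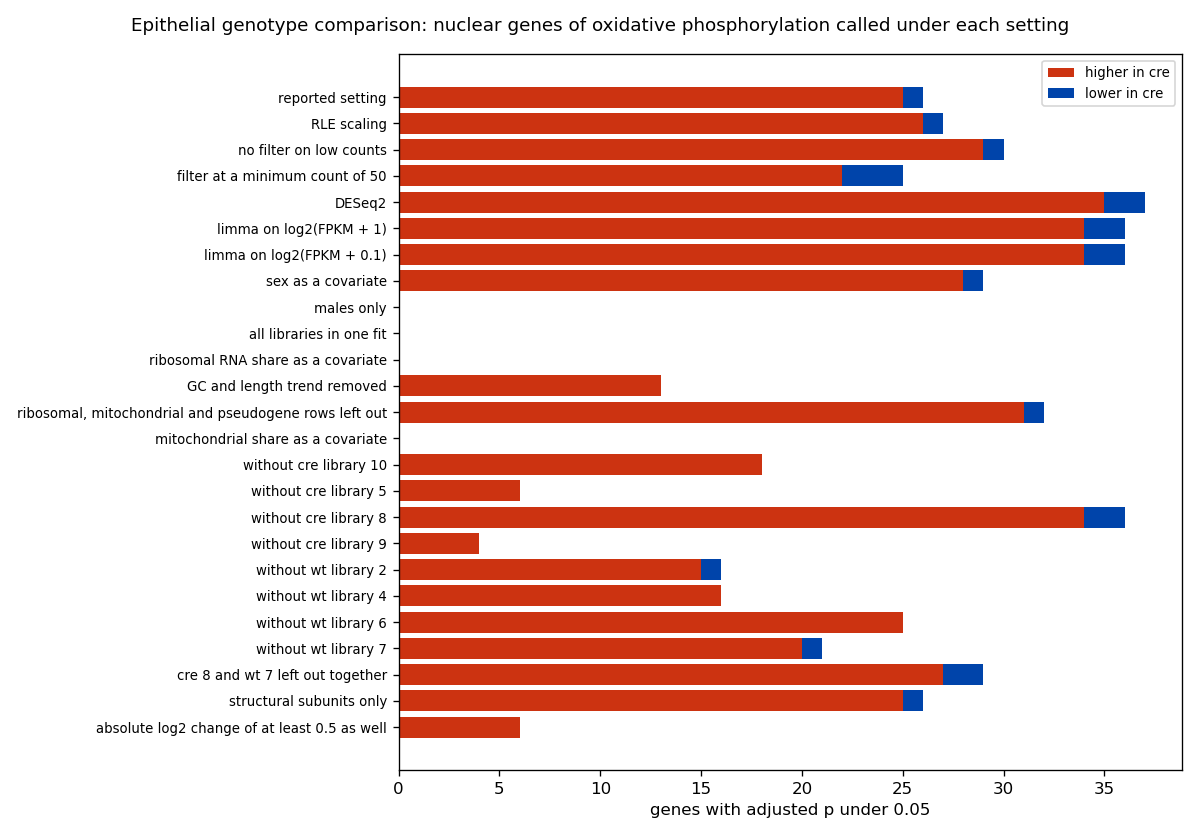
Number of members with an adjusted p under 0.05 in the epithelial genotype comparison under each setting, in red where higher and in blue where lower in cre. The reported setting has 26 and 4 settings have 0.

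Measures of library make-up were set beside these changes. Mitochondrial genes took 11.6 to 18.1% of counts in wt and 10.4 to 10.7% in cre epithelial libraries, without overlap (two-sided exact permutation p = 0.0286, the smallest that 4 against 4 can give). The ribosomal RNA row took 18.5 to 31.8% in wt and 7.37 to 26.7% in cre libraries, which overlapped (exact permutation p = 0.114), with cre 8 the highest of the latter. The 14 macrophage markers summed to 77.8 to 161 CPM in wt and 43.6 to 87.9 in cre libraries, which overlapped, and 5 of the 12 tested were lower (median log2 change -1.0). None of these markers was at 0 in a group. Epithelial markers summed to 9306 to 12764 CPM in wt and 12236 to 13491 in cre libraries, and the 7 goblet cell markers to 6642 to 11075 and 9938 to 11754, both with overlap. Of 10 epithelial markers 2 were higher and 1 lower (median log2 change 0.04), and of the 7 goblet cell markers 1 was higher (median -0.06). Stem cell and Wnt target markers summed to 208 to 286 CPM in wt and 188 to 236 in cre libraries, with 0 of 6 tested called (median -0.27). Absorptive colonocyte markers summed to 2666 to 4540 and 3303 to 4038, with 1 of 7 higher (median -0.26). Proliferation markers summed to 354 to 614 and 547 to 608, with 1 higher and 1 lower of 8 (median 0.11). All these groups overlapped. Without cre 8 and wt 7, whose ribosomal and mitochondrial shares lay apart, 29 members were called, 27 of them higher. The part of these measures in the members' changes was not tested further.

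Genes that work with the respiratory chain were counted against the same 5.64% higher and 3.53% lower of all genes tested, without a test of each list. Of 40 tested assembly factors outside the members, 3 were higher: Cox10, which makes heme for complex IV (log2 change 0.60, SE 0.12), Coa3 (0.58, SE 0.12) and Cox19 (0.53, SE 0.14). A list of 21 genes, called carriers and cytochromes below, held genes for ubiquinone synthesis, cytochromes and the inhibitor of the ATP synthase. It also held Etfa, Etfb, Etfdh, Dhodh and Gpd2, whose products feed electrons towards ubiquinone. Of the 21, 4 were higher, among them the ubiquinone synthesis genes Coq7 (0.71, SE 0.12), Coq8a (0.56, SE 0.10) and Coq4 (0.61, SE 0.12). The fourth was Atpif1, the ATP synthase inhibitor (0.37, SE 0.10). The list of 20 genes called tricarboxylic acid cycle genes here also holds genes of pyruvate dehydrogenase, among them Pdhb, Pcx, and the cytosolic Mdh1 and Aco1. Of these 20, 3 were higher, Idh2 (0.49, SE 0.10), Pdhb (0.42, SE 0.09) and Idh3g (0.37, SE 0.10). Of 24 tested regulators of mitochondrial genes 2 were lower, Gabpb1, a subunit of the ETS factor GABP (-0.62, SE 0.18), and Hif1a, the oxygen-regulated factor (-0.63, SE 0.19).

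The subunits encoded in mitochondrial DNA went the other way. Of 13 such genes 9 could be tested, and 7 were lower in cre epithelial cells, with a median log2 change of -0.78. They were led by mt-Nd6 (-0.93, SE 0.13), mt-Nd5 (-0.90, SE 0.14) and mt-Co1 (-0.85, SE 0.14). mt-Co1 ran from 8115 to 12793 CPM in wt and from 5554 to 7381 in cre libraries.

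In macrophages, where the recombinase is active, no member passed the test. Of 94 tested genes 0 were higher and 0 lower in edgeR, against 0.731% and 0.213% of all 14087 genes, and DESeq2 also called 0. At an unadjusted p under 0.05 stood 5 of the members and 1802 of all genes. The median log2 change was 0.06 against 0.0038 for all genes, 66 values were above 0 and 28 below, and the range was -0.82 (Sdhaf3) to 0.65 (Ndufs1). The members' median was 0.14 without wt library 2, 0.12 without cre library 9 and 0.03 without wt library 6. It was 0.16 with sex as a covariate and -0.0038 with the ribosomal RNA share as a covariate. With males only it was 0.17, but there wt library 6 was the only wt library. By complex the medians were 0.13 (I), -0.06 (II), 0.15 (III), 0.05 (IV), 0.05 (V) and -0.07 (assembly factors). A p that misses the threshold does not show that levels were alike.

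The 5 members with an unadjusted p under 0.05 were named after their values were seen. Cox5a was at 84.1, 67.6 and 57.1 CPM in wt and at 125, 87.8 and 103 in cre macrophages (log2 change 0.61, SE 0.19, edgeR adjusted p = 0.212). The cre libraries lay above the wt ones, the lowest cre value being close to the highest wt value. Ndufs1, the largest core subunit of complex I, was at 19.8, 19.6 and 18.6 CPM in wt and 27.7, 24.1 and 38.5 in cre macrophages (0.65, SE 0.22, edgeR adjusted p = 0.259). Ndufa12 and Uqcr11 stood at 0.53 (SE 0.18) and 0.38 (SE 0.17), and Sdhb at -0.38 (SE 0.16). Cox7c, the member that fell in epithelial cells, was at 34.7, 44.7 and 39.2 CPM in wt and 28.7, 31.1 and 28.8 in cre macrophages, with an adjusted p above the threshold.

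**Figure D5:**
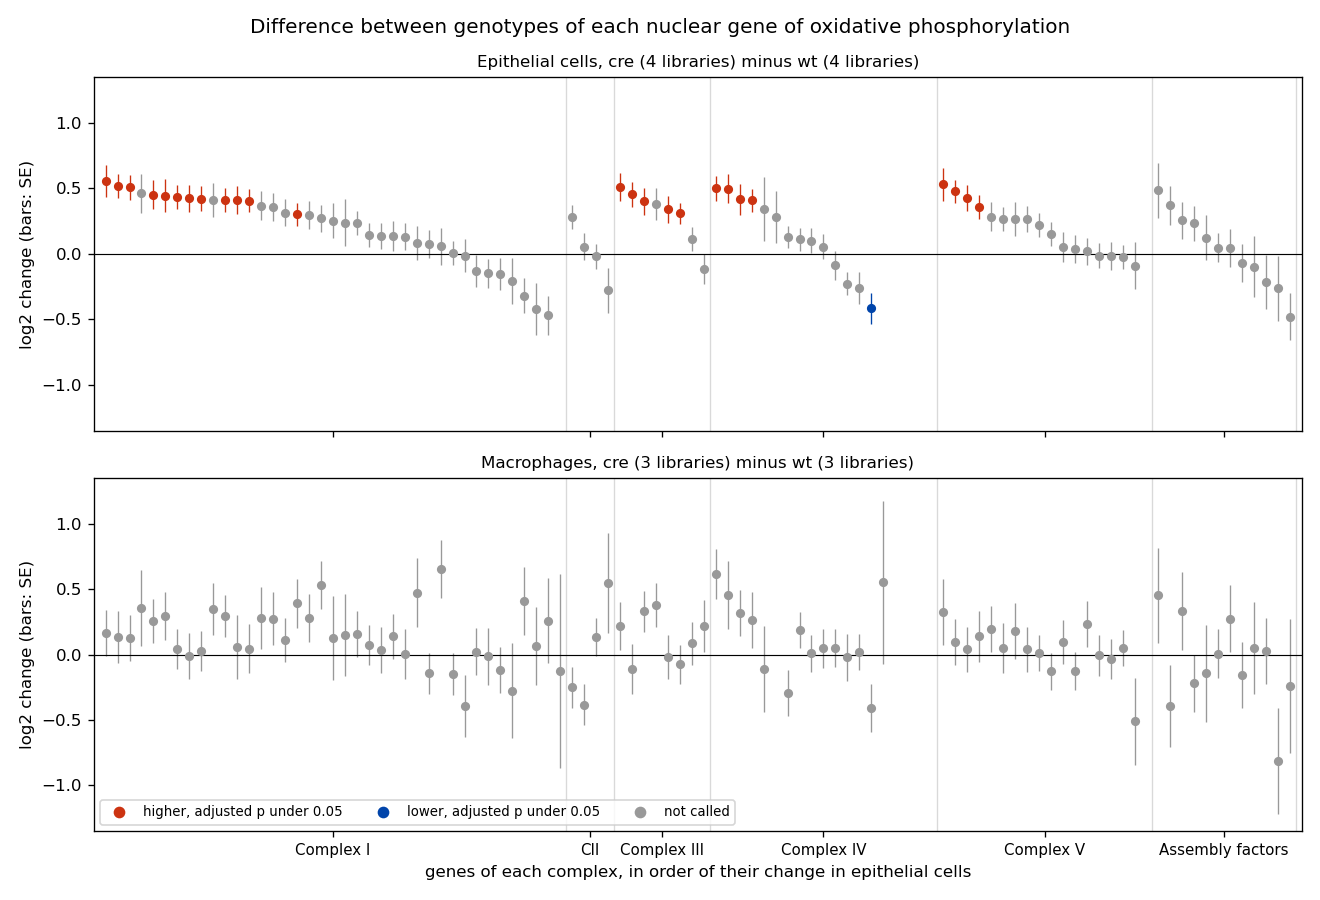
Log2 change between genotypes with its SE for each tested gene, epithelial cells above and macrophages below, in the same gene order within each complex. In epithelial cells 25 genes are called higher (red) and 1 lower (blue), and in macrophages none is called and the error bars are wider.

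Genes of abundance and isoform sets in macrophages gave these changes, none past the threshold. Cox4i1 stood at 0.31 (SE 0.18), Atp5b at -0.13 (SE 0.15), Uqcrc1 at -0.11 (SE 0.19), Ndufa2 at 0.28 (SE 0.18), Sdha at -0.25 (SE 0.16) and Sdhd at 0.55 (SE 0.38). The subunit c genes Atp5g1, Atp5g2 and Atp5g3 stood at 0.05 (SE 0.19), -0.51 (SE 0.33) and 0.05 (SE 0.14). Cox7a2l stood at -0.29 (SE 0.18), Cox4i2 at 0.55 (SE 0.62) and Ndufa4l2 at -0.12 (SE 0.74). No gene of the 5 other mitochondrial lists was called in edgeR, out of 39 further assembly factors, 21 carriers and cytochromes, 20 regulators, 20 tricarboxylic acid cycle genes and 9 mitochondrial subunits tested. In these libraries the summed fibroblast and smooth muscle markers given above were lower in each cre than in each wt library, with 0 of 9 called (median log2 change -1.31). Single markers ran from -1.67 to 0.04. The fibroblast marker Dcn was at 917 ± 251 CPM in wt and 364 ± 137 in cre macrophages. The smooth muscle marker Acta2 stood at 260 ± 7.23 and 265 ± 72.7 (SD, n = 3 each). Des, at 62.3, 66.5 and 42.8 CPM in wt and 25.5, 63.8 and 80.7 in cre, overlapped. The 7 dendritic cell markers summed to 917 to 1901 CPM in wt and 591 to 733 in cre macrophages, with 1 called lower (median -1.26). The 5 T cell markers summed to 8.91 to 10.8 and 2.86 to 2.91 CPM, with 0 of the 3 tested called. The 6 B and plasma cell markers summed to 567 to 2673 CPM in wt and 1018 to 1704 in cre macrophages, with 0 called (median log2 change -0.42). Of the 14 macrophage markers 1 was called higher (median 0.27). Their part in the members' values was not tested, and the sex of the mice cannot be fully told apart from genotype here.

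Whether the genotype difference was unequal in the 2 cell types was tested directly, as the macrophage change minus the epithelial change over all 14 libraries. Of 95 tested members 0 were called in either direction by edgeR, against 0.47% of 16375 genes above 0 and 0.232% below. At an unadjusted p under 0.05 stood 12 members, and the median difference was -0.12 against 0.04 for all genes. The smallest adjusted p was that of Sdha (-0.56, SE 0.18, edgeR adjusted p = 0.159), followed by Ndufb3 (0.70, SE 0.25) and Uqcrc1 (-0.60, SE 0.22), both at an adjusted p of 0.206. DESeq2 called 2 members, Sdha (-0.62, DESeq2 adjusted p = 0.0291) and Uqcrfs1 (-0.47, DESeq2 adjusted p = 0.0488), both lower in this difference. By complex the medians were -0.13 (I), -0.17 (II), -0.21 (III), -0.02 (IV), -0.23 (V) and -0.07 (assembly factors). The calls in epithelial cells and their lack in macrophages are thus no measure of a difference between the cell types.

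Between cell types the related lists were counted against 34.3% of all genes lower and 39.4% higher in macrophages, without a test of each list. In macrophages 30 of 40 further assembly factors were lower and 3 higher, as were 16 and 1 of 21 carriers and cytochromes, 19 and 0 of 20 tricarboxylic acid cycle genes and 6 and 0 of 9 mitochondrial subunits. The regulators went both ways, with 13 lower and 7 higher of 24 (median log2 difference -0.79), and their summed level was 295 to 455 CPM in macrophages and 264 to 302 in epithelial cells. Suclg1, of succinyl-CoA synthetase, differed by -2.86 (SE 0.09), Coq8a by -2.97 (SE 0.12) and Cyc1, the cytochrome of complex III, by -2.49 (SE 0.11). Tfam, which packages mitochondrial DNA, differed by -1.65 (SE 0.14). Coq10b, Hif1a and Gabpa, the DNA-binding subunit of GABP, were higher in macrophages by 3.85 (SE 0.13), 2.70 (SE 0.16) and 1.47 (SE 0.24). Mitochondrial subunits differed less, with mt-Nd1, mt-Nd3 and mt-Cytb at -0.80 (SE 0.15), -0.70 (SE 0.16) and -0.55 (SE 0.13).

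Members were short, with a median transcript length of 1141 bases against 2904 for all tested genes, at a GC content of 50.0% against 49.6%. In the epithelial genotype comparison, Spearman's rho of the log2 change with GC content was 0.245 over 93 members and 0.328 over all genes, and with length 0.146 and -0.373. These are descriptions across genes that share libraries. A further 16 rows with the same name stems are annotated as pseudogenes. They held 1.39 to 1.83% of the counts of members and pseudogenes together, so reads of near-identical copies may be split. For single genes the part could be larger. Over all libraries Ndufs5-ps held 3648 counts, beside 31 to 158 per library for Ndufs5. Atp5l-ps2 and Atp5l2-ps held 2363 and 1897, beside 85 to 407 per library for Atp5l. Ndufa12-ps held 6545, beside 127 to 1021 per library for Ndufa12, and Ndufab1-ps 1506, beside 50 to 374 for Ndufab1. What this meant for the values of these members was not tested.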

How the data were processed

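Poly(A)-primed Smart-seq2 cDNA was made into Nextera XT libraries and sequenced as 50 bp single reads, which keep no strand, per the labels' protocols. Per the submitters' processing notes the tools included Picard 2.19.2, STAR 2.5.2b and DESeq2 1.24.0, with genome GRCm38. Not given in the sources used here are how reads were counted, with which annotation release and with what strand setting. The authors deposited raw counts per gene and FPKM, which equal the count divided by 1 value per gene and 1 factor per library. Reads of overlapping genes, paralogs and pseudogenes may be split or lost.

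The test of counts was that of edgeR 4.0.16 (R 4.3.3), after filterByExpr (minimum count 10) and scaling by TMM, with robust quasi-likelihood F tests and Benjamini-Hochberg adjustment over all genes tested at a threshold of 0.05. Each cell type was fitted alone for genotype, and all 14 libraries with 4 groups for the other comparisons. The script was tested on simulated data. The SE of a log2 change was taken as its absolute value over the root of F. Alternatives used DESeq2 1.42.0 and limma 3.58.1 on log2(FPKM + 1). Per-library CPM share one TMM scaling over all libraries. Promoters came from RefSeq. Nothing in the labels says that libraries are separate animals beyond their mouse numbers, and a chi-square test of counts found a difference between the libraries of each pair within a group (lowest ratio to its degrees of freedom 6.72).

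The members and lists were chosen with earlier results of these data known. Named genes were the 3 called members with the smallest p per direction, complex and comparison, the isoform sets, the highest and lowest member by FPKM in each complex, and up to 3 called genes per related list. Usmg5 matched no row. The values of 1 member are not reported here.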

Additional observations from a re-analysis of the deposited data

Results flagged for a closer look

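In groups of 4 epithelial libraries, 5 of 114 sets of 4 values held a library far from the other 3 by Dixon's test, in which the gap to the nearest value is set against the range of the group. Chance gives about 1 in 20. Among wt libraries, Atp5g3 in wt 4 was at 352 CPM against 295 to 298 in the others. Ndufa10 in wt 6 was at 200.1 CPM against 220.4 to 224, and Atp5d in the same library at 806 against 699 to 709. Among cre libraries, Sdhb in cre 8 was at 132 CPM against 157 to 162, and Atp5o in cre 5 at 311 against 259.9 to 263.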

How the results depend on the processing

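In epithelial cells the 26 calls became 0 with males only, with all libraries in one fit, with the ribosomal RNA share as a covariate and with the mitochondrial share as a covariate (the last, like the pair of libraries left out together, chosen after seeing the data). They became 13 with the GC and length trend removed and 6 with an absolute log2 change of at least 0.5 as well, and ran from 4 to 36 when 1 library was left out. The median log2 change there was 0.14 with the ribosomal RNA share as a covariate and 0.16 to 0.25 when 1 library was left out. With limma on log2(FPKM + 1) the median of all genes moved from -0.05 to 0.06 and the members' median was 0.25. Other settings gave 25 to 37 calls. For the difference of genotype effects DESeq2 called 2 members, and the median ran from -0.22 to -0.050 when 1 library was left out. In macrophages every setting run with more than 1 library in each group gave 0 calls. Between cell types 89 to 92 members were called under the other scalings, filters, tools and single libraries left out; the median of -1.40 became -1.19 with limma on log2(FPKM + 1), -1.30 on log2(FPKM + 0.1) and -1.55 with ribosomal, mitochondrial and pseudogene genes left out. Sdhaf2 reversed to -0.27 with the GC and length trend removed. The cause was not tested for any of these.

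With the mouse number as a replicate block, 89 members differed between cell types (median -1.42) and 0 in the difference of genotype effects (median -0.07). Deviations of same-numbered macrophage and epithelial libraries correlated at 0.0636, 0.0289 and 0.0890 in wt and at -0.0461, -0.0142 and -0.0077 in cre. Those of libraries with different numbers correlated at -0.0862 to 0.0523. Correlations this small between different cell types cannot show whether libraries of 1 number came from 1 mouse. No paired analysis was possible within a cell type because wt and cre share no mouse number. With 3 or 4 libraries a group, low members are limited by counts: 5 to 7 of the 100 rows were not tested in each comparison.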
